A study of Mus musculus with 5 samples.

Results

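Circadian clock genes were followed across 5 lines of the mouse neuroblastoma cell line Neuro2A. They are the 10 genes Arntl2, Arntl, Clock, Npas2, Per1, Per2, Per3, Cry1, Cry2 and Nr1d2, taken by symbol from the platform annotation, of 18193 genes named on the array. A probe set is a group of short array probes read as one signal, and 24 of the 45037 non-control probe sets carried 1 of these symbols and no other. The group was chosen by the signal of Arntl2, 1 probe set of which was higher in the KDM7 knockdown lines in earlier results of these arrays, so the comparison of knockdown with control is given as a description and supports nothing. The study asked how KDM7, a histone demethylase and the product of Kdm7a, affects gene expression. The control group held 3 lines, namely parental Neuro2A cells, cells carrying an empty vector and cells carrying a knockdown vector against EGFP, and the knockdown group was 2 stable lines, each with its own vector targeting KDM7. Each line was measured once, on 1 array, and the labels do not say whether a line is a single clone or a pool. The labels do not say that lines were cultured apart, so p-values measure only the spread between these 5 arrays, which also holds differences between constructs.

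The mammalian clock is a feedback loop of transcription. CLOCK or its relative NPAS2 pairs with BMAL1, the product of Arntl, or with BMAL2, the product of Arntl2, and the pair binds E-box sequences and activates the Per and Cry genes, whose proteins then hold the pair back. In a second loop the nuclear receptors REV-ERB alpha and beta (Nr1d1 and Nr1d2) repress Arntl while ROR receptors activate it, and factors such as DBP act through D-box sequences. Cells in culture can run this loop, with phases that drift apart unless they are synchronised, and the labels give neither a time of harvest nor a synchronising step.

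The upstream sequences of 4 clock genes are shown, because these are the genes with a probe set whose signal in both knockdown lines exceeded that of all control lines. Each is the 250 bases before an annotated start, from RefSeq, written 5' to 3' along the gene, with the clock motifs found in it in capitals.
Arntl2 (GRCm38.p6, chr6:146805280-146805529, plus strand): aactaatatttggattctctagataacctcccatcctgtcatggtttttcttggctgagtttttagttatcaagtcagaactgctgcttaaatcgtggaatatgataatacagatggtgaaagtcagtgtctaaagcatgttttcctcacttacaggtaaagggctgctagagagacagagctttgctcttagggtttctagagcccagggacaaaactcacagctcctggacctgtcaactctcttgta
Arntl (GRCm38.p6, chr7:113207215-113207464, plus strand): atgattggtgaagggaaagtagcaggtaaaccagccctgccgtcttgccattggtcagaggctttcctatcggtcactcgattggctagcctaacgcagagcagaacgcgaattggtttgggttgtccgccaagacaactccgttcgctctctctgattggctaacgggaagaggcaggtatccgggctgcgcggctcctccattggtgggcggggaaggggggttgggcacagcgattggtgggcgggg
Per1 (GRCm38.p6, chr11:69098699-69098948, plus strand): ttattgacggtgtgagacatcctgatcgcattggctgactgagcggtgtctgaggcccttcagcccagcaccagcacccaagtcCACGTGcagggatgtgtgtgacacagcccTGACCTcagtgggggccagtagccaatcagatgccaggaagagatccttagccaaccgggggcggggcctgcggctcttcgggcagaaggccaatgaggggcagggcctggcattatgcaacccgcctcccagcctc
Per3 (GRCm38.p6, chr4:151044666-151044915, minus strand): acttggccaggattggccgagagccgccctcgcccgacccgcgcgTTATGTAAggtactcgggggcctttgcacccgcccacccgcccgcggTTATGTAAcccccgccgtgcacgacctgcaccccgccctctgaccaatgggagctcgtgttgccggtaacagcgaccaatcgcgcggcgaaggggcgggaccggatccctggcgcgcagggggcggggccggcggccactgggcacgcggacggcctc

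RefSeq windows of 300 bases, reaching 50 bases past the start, were at hand for 9 of the 10 genes (13 windows). Arntl and Per1 each had a further annotated start, whose window is not shown above. Motifs were searched on both strands. The E-box CACGTG was in 2 of the 13 windows, from 2 of the 9 genes, and in 7.15% of all 32851 windows. It begins 166 bases before the start shown for Per1 and 60 bases before that of Cry1. The variant CACGTT was in 2 of the 13 windows, those of Cry1 and Cry2, and in 4.68% of all windows. The D-box TTATGTAA was in 1 of the 13, that of Per3, at 205 and at 158 bases before the start, and in 0.938% of all windows. AGGTCA, the half-site of REV-ERB and ROR receptors, was in 4 of the 13 windows, 1 each of Arntl, Clock, Nr1d2 and Per1, and in 16.3% of all windows. In Per1 it is read on the opposite strand, as TGACCT. In Arntl it lies 31 bases past the further start, in the window chr7:113207261-113207560, which is not the one shown. No motif overlapped another in these windows. The Arntl2 window held none of the 4 motifs, and it lies inside the span annotated for the gene, so other starts of Arntl2 were not used here. A match describes letters only and is no evidence of binding.

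The signal is the MAS5 value of the deposited table, on a linear scale, and every array had a 2% trimmed mean of 500.0. Probe sets with a mean log2 signal at or above the median over all non-control probe sets, which is a signal of 40.5, were tested with limma, 22519 in all. Of the clock probe sets 14 of 24 passed this filter, from 9 of the 10 genes. The dimmest one inside was Arntl 1457740_at, at the percentile 51.2 of brightness, and the brightest one outside was Per3 1441445_at, at 49.1. Since the position of each probe set on the transcripts was not used here, signals are compared between lines and not between probe sets. Kdm7a itself had, by probe set 1456150_at, a signal of 487 to 665 in the control lines and of 130 and 136 in knockdown lines 1 and 2, as the labels call for. Its sets 1435867_at (648 to 872 against 231 and 143) and 1427359_at (62.4 to 103 against 25.2 and 19.9) were also lower. Of its sets under the filter, 1459820_at was lower in both knockdown lines and in 1459821_x_at the groups overlapped. Of the sympathoadrenal and neuronal markers 9 of 12 genes passed the filter, and Th, which encodes tyrosine hydroxylase, did not. Of their 15 probe sets past it, 1 had both knockdown lines above all controls, that of Chgb (log2 difference 0.58), against 12.6% of all tested. Both lay below all controls for 4, against 10.2% of all tested. These were Gata3 (-1.68), Chga (-0.56) and 1 set each of Isl1 (-1.62) and Stmn2 (-0.03). The summed signal of all 16 sympathoadrenal and neuronal probe sets was 52690 to 59410 in the control lines and 55180 to 61570 in the knockdown lines. The part of these markers in the clock values was not tested. No Schwann, glial, blood or immune marker passed the filter. The summed signal of 16 mesenchymal and smooth muscle probe sets was 312 to 5198 in the control lines. It was 203 to 252 in the knockdown lines. The highest value was that of the parental line, mostly from 1 set each of Acta2 (2733) and Myl9 (2327). The same sets were at 73.3 to 105 (Acta2) and 40.1 to 56.9 (Myl9) in the other control lines. In knockdown lines 1 and 2 they were at 89.6 and 39.3 (Acta2) and at 7.88 and 4.33 (Myl9). The Col1a2 set past the filter was at 40.3 to 46.0 in the control lines and at 61.3 and 27.9 in the knockdown lines. All other sets of this list were under the filter. Of the 3 sets past it, 1 had both knockdown lines below all controls, that of Myl9, against 10.2% of all tested. For 0 both lay above, against 12.6%. The part of these markers in the results was not tested.

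Across all clock genes, 0 of 14 probe sets passed limma's threshold of an adjusted p of 0.05 for knockdown against control, where 0.00888% of all tested probe sets passed. These were 2 sets, 1 of them Kdm7a 1456150_at (adjusted p = 0.0468 in limma). Kdm7a 1435867_at, with a log2 difference of -1.99, did not pass (adjusted p = 0.129 in limma), so few changes could pass with these arrays. With no adjustment, 3 clock probe sets had a p under 0.05 in limma, 1 each of Arntl2, Per2 and Per3, against 4.96% of all tested, and without the trend and robust options 2, against 5.56%. The signal of both knockdown lines exceeded that of all controls for 4 of the 14 (Arntl2, Arntl, Per1 and Per3), against 12.6% of all tested, and was below it for 1 (Per2), against 10.2%. The median log2 difference, knockdown minus control, was 0.24 for the clock probe sets and 0.03 for all tested. Because the genes were picked with this comparison in view, nothing is read from these counts. Without the EGFP knockdown line the counts were 7 above and 3 below, where 23.5% and 16.6% of all tested lay so. Without the parental line 2 lay below, the second being Arntl 1457740_at, where 17.7% of all tested lay below.

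**Figure D1:**
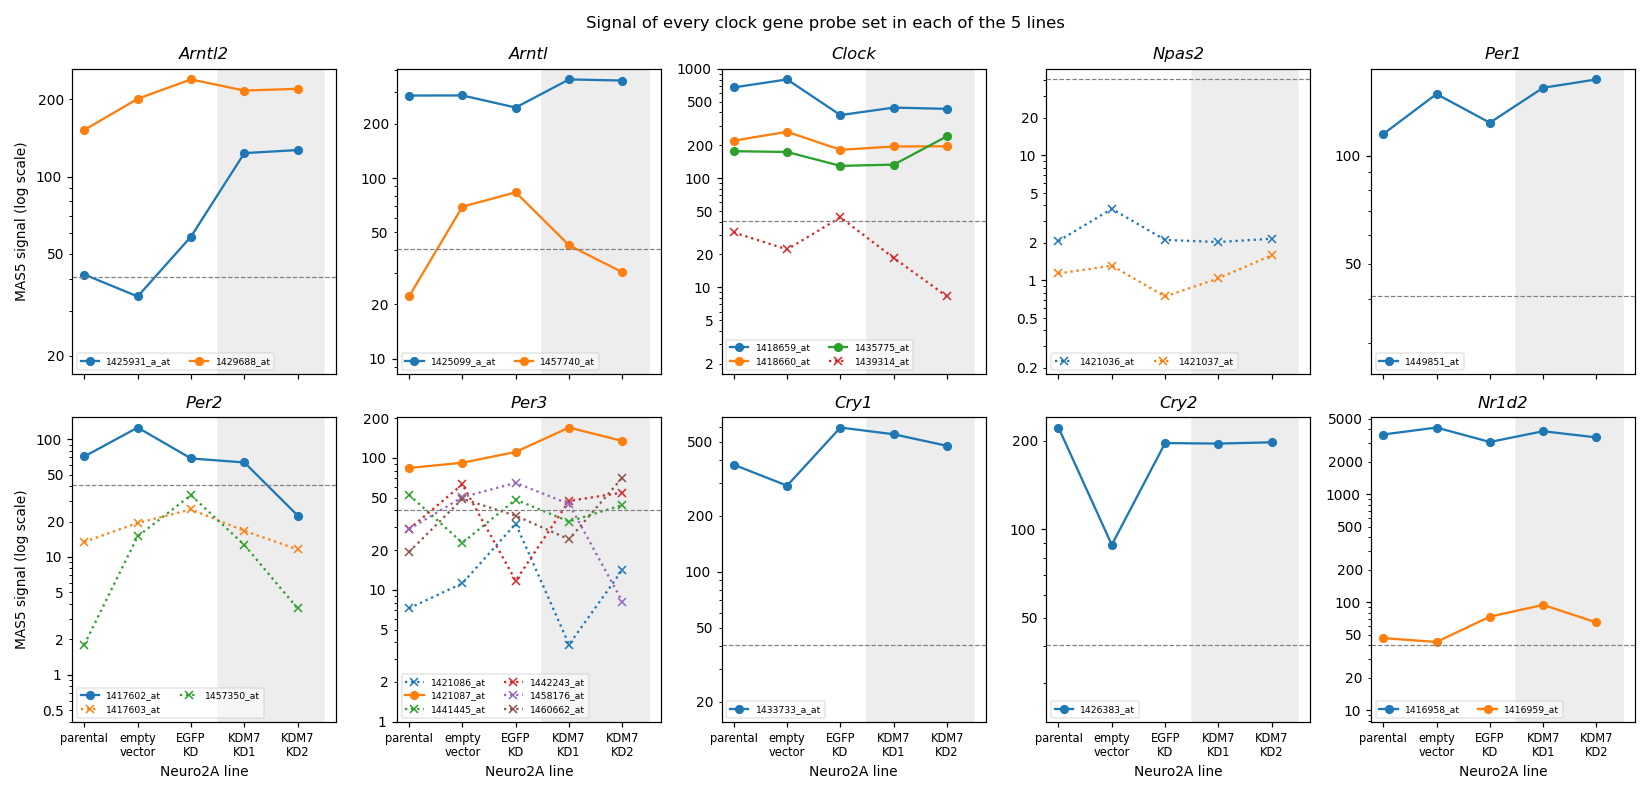
Signal (MAS5, log scale) of all 24 clock probe sets in the 5 lines, 1 panel per gene, with the knockdown lines on grey. Circles with solid lines passed the brightness filter, crosses with dotted lines did not, and the dashed line is the filter's level of 40.5. Arntl2 1425931_a_at is at 123 and 127 in the knockdown lines and at most 58.3 in the control lines, while Arntl2 1429688_at runs from 152 to 239 with both knockdown lines inside the control range.

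Among the activators, Arntl2 encodes BMAL2, a partner of CLOCK. Its probe set 1425931_a_at had a signal of 41.5 in the parental, 34.1 in the empty vector and 58.3 in the EGFP knockdown line, and of 123 and 127 in knockdown lines 1 and 2. Both knockdown lines were thus above all controls and close to each other, and the empty vector line was under the filter's level of 40.5. The group means were 44.6 ± 12.4 (SD, n = 3) and 125 ± 2.44 (SD, n = 2), a ratio of 2.87 by mean log2 signal (log2 difference 1.52, SE 0.36 in limma). It came to 1.05 when 32 was added to each signal before the log, which damps dim values.

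The second Arntl2 probe set, 1429688_at, gave another picture. Its signal was 152 in the parental, 201 in the empty vector and 239 in the EGFP knockdown line, and 216 and 220 in knockdown lines 1 and 2. The knockdown lines lay inside the control range, and the parental line was the lowest. Its log2 difference of 0.17 (SE 0.25) came to -0.0076 with the parental line left out and to 0.32 without the EGFP knockdown line. The log2 gap between both probe sets moved by 1.77 from line to line, or 3.40-fold, and their knockdown differences were 1.35 apart. Both sets had the empty vector line below the EGFP knockdown line. They differed in the place of the knockdown lines, which were highest by the first and between the empty vector and EGFP lines by the second. The sets also differed in the parental line. It was above the empty vector line by the first (41.5 against 34.1) and below it by the second (152 against 201).

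Arntl encodes BMAL1, the clock's main partner of CLOCK. By 1425099_a_at its signal was 287 in the parental, 288 in the empty vector and 246 in the EGFP knockdown line, and 353 and 348 in knockdown lines 1 and 2. Both knockdown lines were above all controls by a small margin, and the parental and empty vector lines were nearly level. The log2 difference was 0.36 (SE 0.19), a ratio of 1.28.

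The dim Arntl probe set 1457740_at did not show this order. It had a signal of 22.1 in the parental, 69.5 in the empty vector and 83.5 in the EGFP knockdown line, and 42.5 and 30.1 in knockdown lines 1 and 2. The groups overlapped, with the parental line lowest and both other control lines highest. The log2 difference was -0.50 (SE 0.60), and it ranged from -1.09 without the parental line to -0.13 without the EGFP knockdown line. The log2 gap between both Arntl probe sets moved by 2.14 over the lines, the widest of the 6 pairs compared within a gene.

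Clock encodes the other partner of the activating pair. Probe set 1418659_at had a signal of 677 in the parental, 802 in the empty vector and 378 in the EGFP knockdown line, and 442 and 431 in knockdown lines 1 and 2. The EGFP knockdown line was the lowest, so the knockdown lines stood inside the control range although they were below both other controls. The log2 difference was -0.43 (SE 0.30), with -0.21 without the empty vector line and -0.75 without the EGFP knockdown line, where both knockdown lines lay below the remaining controls. Probe set 1418660_at ordered the control lines alike, at 220 (parental), 266 (empty vector) and 182 (EGFP knockdown), with 195 and 196 in the knockdown lines (log2 difference -0.17, SE 0.23). That value was -0.03 without the empty vector line and -0.31 without the EGFP knockdown line. The log2 gap between these probe sets moved by 0.56 over the lines, the narrowest of the 6 pairs.

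Clock probe set 1435775_at differed from both in knockdown line 2. Its signal was 177 in the parental, 174 in the empty vector and 130 in the EGFP knockdown line, 133 in knockdown line 1 and 242 in knockdown line 2. Line 2 was the highest of all and line 1 was near the lowest. The log2 difference to the controls was 0.18 (SE 0.31) for both lines together, -0.25 without knockdown line 2 and 0.61 without knockdown line 1. The remaining Clock probe set, 1439314_at, was under the filter, with a signal of 22.2 to 43.7 in the control lines and of 18.6 and 8.25 in knockdown lines 1 and 2.

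Npas2 encodes the CLOCK relative that can take its place in forebrain. Both of its probe sets were among the dimmest of the arrays, with signals of 2.03 to 3.74 by 1421036_at and 0.745 to 1.59 by 1421037_at, and no difference between lines is given at this level.

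**Figure D2:**
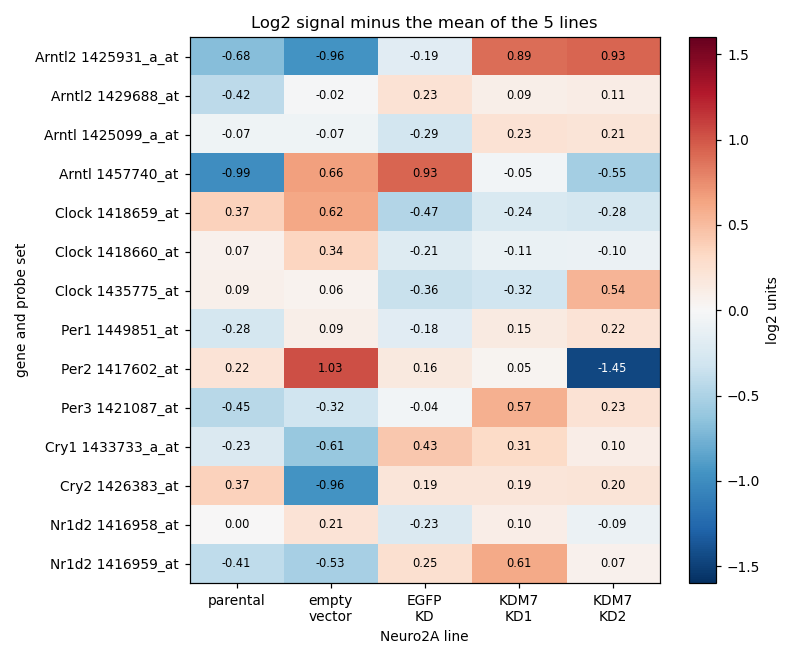
Log2 signal minus the mean of the 5 lines for the 14 clock probe sets that passed the filter, in log2 units (red above, blue below the mean; columns are the lines). Arntl2 1425931_a_at runs from -0.96 in the empty vector line to 0.93 in knockdown line 2, Per2 1417602_at from 1.03 to -1.45 in the same lines, and Cry2 is at -0.96 in the empty vector line and 0.19 to 0.37 elsewhere.

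The repressors were measured by fewer probe sets. Per1, a PERIOD gene that light or serum induces quickly, had 1 probe set (1449851_at), with a signal of 115 in the parental, 148 in the empty vector and 123 in the EGFP knockdown line, and of 154 and 163 in knockdown lines 1 and 2. Both knockdown lines were above all controls, line 1 only just above the empty vector line. This gave a log2 difference of 0.31 (SE 0.24). After median centring, which moved all differences by -0.11, knockdown line 1 no longer lay above the empty vector line, and 3 clock probe sets in place of 4 were above all controls, while the share of all tested above them went from 12.6% to 6.02%.

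Per2, a PERIOD gene whose loss disrupts daily rhythms in mice, had its highest signal in a control line. Probe set 1417602_at was at 71.4 in the parental, 126 in the empty vector and 68.7 in the EGFP knockdown line, and at 63.5 in knockdown line 1 and 22.5 in knockdown line 2. Both knockdown lines were below all controls, but line 1 was close to 2 of them, and line 2 was under the filter's level. The group means were 88.5 ± 32.1 (SD, n = 3) and 43.0 ± 29.0 (SD, n = 2). The log2 difference of -1.17 (SE 0.51) was -0.42 without knockdown line 2 and -1.92 without knockdown line 1, and -0.71 with 32 added. Its range over the 5 lines, 5.58-fold, was the widest of the 14 clock probe sets and wider than that of 98.4% of the tested ones. Per2 1417603_at and 1457350_at were under the filter, with overlapping groups at 11.6 to 25.3 and 1.80 to 33.5.

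Per3, a PERIOD gene that the core rhythm can do without, had 1 probe set past the filter. By 1421087_at its signal was 84.0 in the parental, 92.0 in the empty vector and 111 in the EGFP knockdown line, and 170 and 135 in knockdown lines 1 and 2. Both knockdown lines were above all controls, line 1 the more so. The means were 95.7 ± 14.0 (SD, n = 3) and 152 ± 25.1 (SD, n = 2), with a log2 difference of 0.67 (SE 0.27), or 0.50 without knockdown line 1. The other 5 Per3 probe sets were under the filter, with signals from 3.84 to 71.0, and in each of them the groups overlapped. Their log2 differences did not share a sign and ran from -1.25 by 1458176_at to 0.87 by 1442243_at.

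The cryptochromes bind the activating pair and are the loop's strongest repressors. Cry1 (1433733_a_at) had a signal of 376 in the parental, 290 in the empty vector and 595 in the EGFP knockdown line, and 548 and 475 in knockdown lines 1 and 2. The groups overlapped, since the EGFP knockdown line was the highest of all. The log2 difference was 0.34 (SE 0.29), and it was 0.63 without the EGFP knockdown line and 0.11 without the empty vector line. Cry2 (1426383_at) stood out in 1 control line, with a signal of 88.5 in the empty vector line against 222 in the parental, 196 in the EGFP knockdown and 196 and 198 in knockdown lines 1 and 2. The other 4 lines were nearly level, and the log2 difference of 0.33 (SE 0.38) was -0.09 without the empty vector line.

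Nr1d2 encodes REV-ERB beta, a haem-binding repressor. Its bright probe set 1416958_at had a signal of 3570 in the parental, 4139 in the empty vector and 3044 in the EGFP knockdown line, and 3826 and 3356 in knockdown lines 1 and 2. The groups overlapped and the log2 difference was 0.01 (SE 0.15). The range over the 5 lines was 1.36-fold, the narrowest of the 14. The sign of this difference turned without the EGFP knockdown line, without knockdown line 1 and after median centring.

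Nr1d2 1416959_at was dim, at 46.6 in the parental, 42.9 in the empty vector and 73.6 in the EGFP knockdown line, and at 94.5 and 64.9 in knockdown lines 1 and 2. Knockdown line 2 was below the EGFP knockdown line, so the groups overlapped here as well. The log2 difference was 0.57 (SE 0.39), with 0.30 without knockdown line 1, 0.84 without knockdown line 2 and 0.38 with 32 added. Over all 10 genes, 4 had more than 1 probe set past the filter. In 2 of these, Arntl and Clock, the sign of the difference was not the same in all sets, and in the other 2, Arntl2 and Nr1d2, the sign was shared but the size was not. The differences of Arntl2 1429688_at, Arntl 1457740_at, Clock 1418660_at and 1435775_at and Nr1d2 1416958_at were smaller than their SE. The signs of these sets are therefore uncertain, and so is whether the sets of a gene share a sign.

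**Figure D3:**
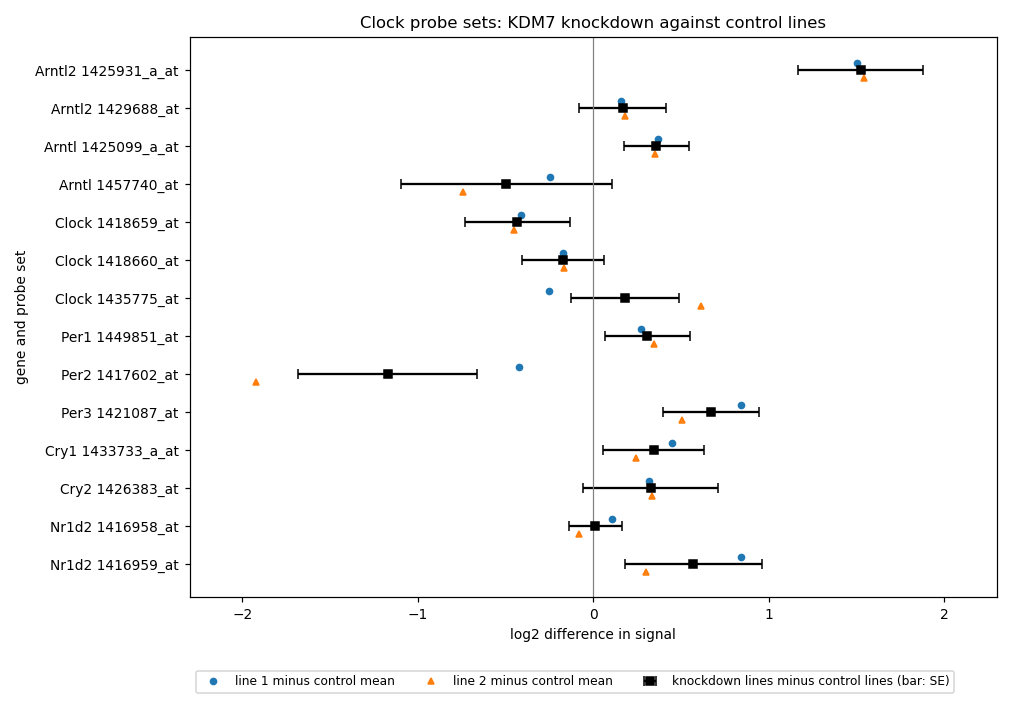
Log2 difference in signal between knockdown and control lines for the 14 clock probe sets past the filter (squares, with the SE from limma as bars), with knockdown line 1 (circles) and line 2 (triangles) each set against the control mean. Arntl2 1425931_a_at is at 1.52 with both lines close together, and Per2 1417602_at is at -1.17 with line 1 at -0.42 and line 2 at -1.92.

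The vectors against KDM7 differ, and line 2 against line 1 was not itself the comparison used in choosing the genes. In limma 0 of the 14 clock probe sets passed for this contrast, where 0.00444% of all tested did, and 0 had an unadjusted p under 0.05, against 1.51% of all tested. The adjusted p was 1 for each. A difference of at least 2-fold was found for 1 of the 14, against 3.08% of all tested. This was Per2 1417602_at, with a log2 difference, line 2 minus line 1, of -1.50 (SE 0.66), and -0.81 with 32 added. Clock 1435775_at followed at 0.86 (SE 0.43). Arntl2 had 0.04 (SE 0.61) by 1425931_a_at and 0.02 (SE 0.44) by 1429688_at, and the median of the 14 was -0.03. Arntl2 was chosen for a higher signal in the knockdown lines, so their agreement by 1425931_a_at is not independent of that choice. The spread in this contrast comes from the control lines, as each knockdown line has 1 array and is assumed to vary like them.

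Of 24 other genes of the clock pathway, 22 had a probe set with 1 symbol and 18 a probe set past the filter, 43 sets in all. For knockdown against control 0 rose and 0 fell at the adjusted threshold in limma, where 0.00888% of all tested passed, and 1 set had an unadjusted p under 0.05 in limma, that of Sirt1, against 4.96% of all tested. Of the 43, 7 had both knockdown lines above all controls and 5 below, against 12.6% and 10.2% of all tested, and the median log2 difference was 0.02. Nr1d1 (1426464_at), which encodes REV-ERB alpha, was the 1 other nuclear receptor of the list past the filter. It had a signal of 83.1 in the parental, 88.2 in the empty vector and 116 in the EGFP knockdown line, and 60.9 and 65.7 in the knockdown lines (log2 difference -0.58, SE 0.31). Its knockdown lines lay below all controls, unlike those of Nr1d2.

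The output genes and the regulators that act on E-boxes or D-boxes had a median log2 difference of 0.26 over 10 probe sets. Both knockdown lines lay above all controls for 4 of the 10, against 12.6% of all tested, and below for 0, against 10.2%. These were Dbp 1418174_at (0.35, SE 0.26) and 1438211_s_at (0.23, SE 0.19), Nfil3 (0.28, SE 0.18) and Hlf 1434735_at (0.43, SE 0.29). For Hlf, knockdown line 2 and the empty vector line were both near 118. None of them passed the adjusted threshold. By each gene's brightest probe set, Bhlhe40, a repressor that competes for E-boxes, had the most positive difference at 0.47 (SE 0.39), and Ciart, a repressor of the activating pair, the most negative at -0.07 (SE 0.26). Dimmer sets of Tef past the filter lay lower, at -0.65 (SE 0.51) by 1450184_s_at and -0.29 (SE 0.42) by 1438033_at. No set of the list past the filter was more positive than that of Bhlhe40. Bhlhe40 had a signal of 279 in the parental line and of 700, 685, 684 and 731 in the empty vector, EGFP knockdown and knockdown lines 1 and 2. The parental line alone was low, so for Bhlhe40 the knockdown lines were not set apart from the vector-carrying controls. The kinases and ubiquitin ligase parts had a median of 0.06 over 19 probe sets. By the brightest set of each gene they lay between 0.22 (SE 0.15) for Csnk1e, a kinase of PER proteins, and -0.15 (SE 0.38) for Btrc, a ubiquitin ligase part that recognises them. Dimmer sets past the filter reached 0.90 (SE 0.46) for Gsk3b 1439931_at, 0.48 (SE 0.35) for Btrc 1457305_at and -0.17 (SE 0.13) for Csnk1d 1415825_s_at. The Btrc sets past the filter thus differed in sign. The clock-associated proteins and targets had a median of -0.10 over 13 sets. By the brightest set of each gene they lay between 0.04 (SE 0.12) for Nampt, an enzyme of NAD synthesis, and -0.38 (SE 0.14) for Sirt1, an NAD-dependent deacetylase. Dimmer sets past the filter reached 0.14 (SE 0.18) for Nono 1447160_at and 0.13 (SE 0.34) for Nampt 1448607_at, and none lay below that of Sirt1.

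Sirt1 (1418640_at) had a signal of 1806 in the parental, 1844 in the empty vector and 1754 in the EGFP knockdown line, and 1494 and 1289 in knockdown lines 1 and 2. The control lines were close together and both knockdown lines lay below them. It did not pass (adjusted p = 0.916 in limma).

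**Figure D4:**
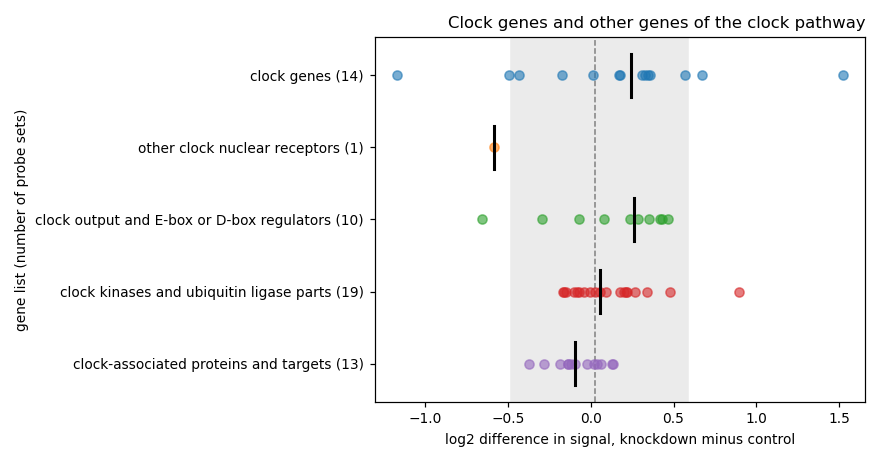
Log2 difference in signal, knockdown minus control, for each probe set past the filter (points) in the clock genes and in 4 lists of other clock pathway genes, with the list median as a black bar. The grey band spans the percentiles 5 to 95 of all tested probe sets (-0.48 to 0.59) and the dashed line their median of 0.03. The clock genes spread from -1.17 to 1.52 with a median of 0.24.

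Genes with the pattern closest to each Arntl2 probe set were found by the root mean square difference of centred log2 signals over the 5 lines. For 1425931_a_at they were Cdkl2 (0.15), Tmem151a (0.21), Col7a1 (0.22), Socs3 (0.23) and Lpar2 (0.25). Cdkl2 had a signal of 28.5 (parental), 23.7 (empty vector) and 42.5 (EGFP knockdown), and of 70.9 and 71.9 in the knockdown lines, and so the same order of controls as Arntl2 at a low level. For 1429688_at they were Bms1 (0.02), Zfp955b (0.02), Nrd1 (0.02), Uhrf1bp1l (0.02) and Cant1 (0.02). Bms1 had a signal of 1024, 1377 and 1606 in the controls and of 1489 and 1470 in the knockdown lines, with the parental line lowest and the EGFP knockdown line highest. The lists share no gene, and likeness over 5 arrays is a description only.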

How the data were processed

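RNA of 5 Neuro2A lines was labelled as biotin cRNA and hybridised to 1 Affymetrix mouse array each, per the labels. The deposited values are linear signal intensities that the authors computed with MAS5, version unstated, per the submitters' processing notes. Detection calls were not used, so a dim signal was not shown to be above background. Of 45101 probe sets, 64 controls were dropped. The log2 of the plain signal was used, and 22519 probe sets at or above the median brightness were kept. Symbols came from the platform annotation, where 34945 probe sets had 1 symbol, 932 several and 9160 none listed.

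The test was limma 3.58.1 in R 4.3.3 (eBayes with trend and robust, Benjamini-Hochberg over all kept probe sets, threshold 0.05), fitted over all 5 arrays with 2 groups (3 residual degrees of freedom), and with 3 groups (2) for line 2 against line 1. The fit was also run on data simulated with independent normal noise and planted shifts. That checks only whether planted shifts come back near their size. It does not check false calls or differences between constructs. The number of arrays limits the precision. The members and lists were chosen with earlier results of these data known, and motifs after the sequences were seen. All 10 genes are named whatever their values, as are, per list of other clock genes, the most positive and most negative gene by its brightest kept probe set, and the 5 nearest genes per Arntl2 probe set. Alternatives were quantile normalization, median centring, other brightness filters, an offset (32), plain eBayes, and leaving out each array. No batch is in the labels.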

Additional observations from a re-analysis of the deposited data

How the results depend on the processing

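Under the 11 alternatives tried, no clock probe set passed in either contrast where it could be fitted. Over all probe sets the calls for knockdown against control were 2, with 1 after median centring, 0 with the offset of 32, 0 without trend and robust, and 0 to 4 when 1 line was left out. The calls for line 2 against line 1 were 1, with 0 with no brightness filter, 0 without trend and robust, and 0 to 2 when 1 control line was left out. Of the 14 differences between knockdown and control, 10 kept their sign in every alternative that tested them, and those of Arntl2 1429688_at, Clock 1435775_at, Cry2 and Nr1d2 1416958_at turned in at least 1. Arntl2 1425931_a_at ranged from 1.05 to 1.73. For line 2 against line 1 the sign turned after quantile normalization for Arntl2 1429688_at (-0.0035), Clock 1418660_at (-0.015) and Cry2 (-0.0045), and after median centring for Arntl 1425099_a_at (0.0462) and Clock 1418659_at (0.0292), and the cause was not tested beyond the shift that centring makes. The filter at the 70th percentile left 4 clock probe sets, without Arntl2. No paired analysis was possible because the labels give no replicate number that control and knockdown lines share. Dim probe sets limit what can be said of Npas2, Per2 and most Per3 sets. The same limit holds for Arntl2 1425931_a_at, Nr1d2 1416959_at and Arntl 1457740_at. Their mean signals, by mean log2, were 66.4, 61.8 and 43.95, against 61.5 for Per2 1417602_at.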
